A study of Caenorhabditis elegans with 2 samples.

Results

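The regions described here are FKH-4 ChIP-seq peaks whose summit, the base of highest enrichment, lay in the promoters of at least 2 protein-coding genes at once. They were taken from the set of peaks that the authors kept as reproducible by IDR (the irreproducible discovery rate, a measure of how alike 2 replicates rank a peak). A promoter window began 1000 bp before and ended 200 bp after the transcription start site (TSS) of a coding transcript. Of 1189 IDR peaks, 697 (58.6%) had their summit in such a window, and for 274 of these the windows belonged to at least 2 genes. These 274 shared peaks are 23.0% of the IDR set (95% exact Clopper-Pearson interval 20.7 to 25.5, which covers counting error only, as do all intervals here) and 39.3% of the promoter peaks (35.7 to 43.0). They are set against 423 peaks in the window of 1 gene, called single-promoter peaks, and 492 peaks in no window.

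FKH-4 is a forkhead transcription factor of the nematode Caenorhabditis elegans. It was precipitated with an antibody against GFP, followed by sequencing (ChIP-seq), in 2 biological replicates of 1 group. The animals were whole hermaphrodite L1 larvae, the first larval stage, starved after bleaching to synchronise them and taken 6 h later. They belonged to 1 transgenic strain, OP100, with the genotype unc-119(tm4063) III; wgIs100, in which FKH-4 carries a C-terminal GFP and FLAG tag, so the protein followed is the tagged one and all cells of the larva are mixed. Both replicates share this genotype, neither is a control, and no source here states how deeply they were sequenced. Besides the IDR set there are longer, relaxed lists of 30000 pooled peaks, 30000 peaks of replicate 1 and 22442 peaks of replicate 2. The pooled list is labelled as peaks and background used as input for IDR. The weaker entries of such lists may therefore be background. The signal given for each peak is the authors' own value and is comparable within a list only. Peaks are not replicates of a condition, and with 1 group of 2 samples no test between groups could be made, so all results are descriptions.

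Forkhead proteins bind DNA through a winged-helix domain, and many of them recognise sites with the core TGTTTAC. The genome of C. elegans is compact, and neighbouring genes often start back to back on opposite strands, so that a short stretch of DNA lies upstream of both. A peak in such a stretch cannot be assigned to either gene from its position. Many worm transcripts are also trans-spliced, which removes the original 5' end, so an annotated TSS can lie downstream of the true start. Here 67 of the 561 gene and summit pairs (11.9%) used a TSS that was the first base of a start codon, where no 5' untranslated sequence is annotated.

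Some shared peaks had 8-letter words at their summits that were nearly absent from the flanks, and most of the following stretches show such words. Each is 75 bp on either side of a summit on ce11 (assembly WBcel235), read 5' to 3'. The first 6 were chosen from the 15 strongest shared peaks, and the fifth of them has both genes on the same strand. All 6 hold the word CTAGGCCA, which only 14.2% of all shared peaks have within 50 bp of the summit. They therefore do not stand for all shared peaks. Among the 15 strongest, the stretches at F10E9.5, W02H5.19 and tasp-1 hold neither of the words marked here. The last 2 were chosen as pairs of genes with known roles. Capitals mark copies of the 8-letter words CTAGGCCA and AGGAGTAC, or their reverse complements TGGCCTAG and GTACTCCT, which are described further on and counted there within 50 bp of the summit.
cux-7, C07H6.2, lig-4, III:7520774-7520924, plus strand: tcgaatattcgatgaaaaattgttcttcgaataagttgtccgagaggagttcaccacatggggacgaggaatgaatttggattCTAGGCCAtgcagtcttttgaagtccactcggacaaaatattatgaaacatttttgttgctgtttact
F25H9.7, F25H9.6, V:13468306-13468456, plus strand: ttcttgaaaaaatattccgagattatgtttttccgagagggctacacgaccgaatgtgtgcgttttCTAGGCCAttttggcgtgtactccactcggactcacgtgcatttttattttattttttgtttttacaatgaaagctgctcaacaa
ced-5, F01D4.5, IV:10483842-10483992, plus strand: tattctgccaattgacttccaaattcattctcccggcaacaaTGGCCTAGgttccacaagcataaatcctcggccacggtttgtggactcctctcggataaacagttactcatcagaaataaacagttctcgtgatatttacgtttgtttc
C47E8.4, hsp-90, V:14685682-14685832, plus strand: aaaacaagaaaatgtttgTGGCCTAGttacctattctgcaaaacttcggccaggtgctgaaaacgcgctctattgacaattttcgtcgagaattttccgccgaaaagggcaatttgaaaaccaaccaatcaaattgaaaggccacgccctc
F10E9.11, sas-4, III:8319244-8319394, plus strand: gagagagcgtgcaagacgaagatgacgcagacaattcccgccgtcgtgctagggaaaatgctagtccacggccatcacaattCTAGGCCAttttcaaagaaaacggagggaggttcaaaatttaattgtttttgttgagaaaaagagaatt
sws-1, mrps-35, V:18981101-18981251, plus strand: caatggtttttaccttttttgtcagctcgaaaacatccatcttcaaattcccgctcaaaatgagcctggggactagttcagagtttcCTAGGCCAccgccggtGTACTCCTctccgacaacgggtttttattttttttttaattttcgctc
gfm-1, rict-1, II:13117223-13117373, plus strand: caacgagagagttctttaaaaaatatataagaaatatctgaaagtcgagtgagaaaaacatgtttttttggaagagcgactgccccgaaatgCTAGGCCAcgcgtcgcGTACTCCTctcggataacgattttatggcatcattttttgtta
rps-14, rpl-36, ndab-2, III:7179795-7179945, plus strand: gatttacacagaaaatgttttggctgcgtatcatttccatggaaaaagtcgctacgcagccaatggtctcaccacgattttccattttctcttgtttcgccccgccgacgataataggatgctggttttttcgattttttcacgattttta
The first 5 stretches each hold 1 copy of the first word and none of the second. In that of hsp-90 the copy stands near the left end, not wholly within 50 bp of the summit, so it is not counted further on. The stretches of sws-1 with mrps-35 and of gfm-1 with rict-1 hold both words, and in both of these 8 bases separate them. The stretch between the ribosomal protein genes rps-14 and rpl-36 holds neither.

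Most shared peaks lay between 2 genes that start on opposite strands. Of the 274, 248 (90.5%, 86.4 to 93.7) had genes on both strands, 247 of them divergent and 1 with starts that overlap by 3 bp (Y54E10BR.2 with the RNA polymerase II subunit gene rpb-7). The remaining 26 (9.49%, 6.29 to 13.6) had all their genes on 1 strand. Of the 274 peaks, 261 lay in the windows of 2 genes and 13 in those of 3. They made up 268 distinct sets of genes, since 6 sets held 2 peaks each. Adjoining peaks of this kind share their stretch of DNA: the 2 summits between the sorting nexin gene snx-13 and the Sm protein gene snr-1 stand 200 bp apart, with signals of 106 and 55.4. Replicate 2's list holds 1 peak for both of them.

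Shared stretches held a larger share of the summits than of the window bases. Promoter windows cover 26.2 Mb, and 2.70 Mb of it (10.3%) lies in the windows of 2 or more genes. That 10.3% of the window bases held 39.3% of the promoter summits. The density was 102 IDR summits per Mb in shared stretches, against 18.0 per Mb in stretches of 1 window and 6.64 per Mb outside windows. Within shared stretches the density was 106 per Mb where the windows were on both strands and 72.3 per Mb where they were on 1 strand. This order did not hold at every distance from a TSS: from 301 to 500 bp there were 44.5 per Mb on both strands and 162 on 1 strand (7 summits), and from 501 to 1000 bp 33.7 and 68.6 (3 summits on 1 strand).

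A shared stretch tends to lie nearer to a TSS than other parts of a window, so the densities were also compared at equal distance. Within 100 bp of the nearest coding TSS there were 105 summits per Mb in shared stretches (98 summits), against 14.5 per Mb in stretches of 1 window (62 summits), a ratio of 7.25. From 101 to 200 bp there were 124 per Mb in shared stretches and 23.5 in stretches of 1 window, a ratio of 5.27. From 201 to 300 bp there were 147 per Mb in shared stretches and 29.6 in stretches of 1 window, a ratio of 4.97. Shared stretches remained denser farther out, with 57.1 per Mb against 22.0 in stretches of 1 window from 301 to 500 bp, and 39.1 against 11.8 from 501 to 1000 bp. The ratio was thus at least 2.59 in each of the 5 distance ranges, and it was highest next to the TSS.

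**Figure D1:**
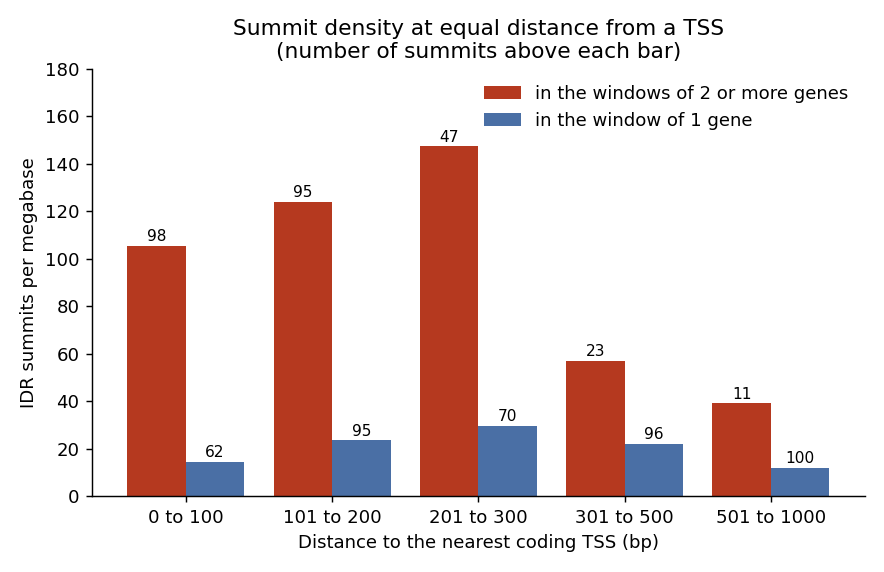
IDR summits per megabase (vertical axis, from 0) by distance of the base from the nearest coding TSS (horizontal axis, bp), in stretches covered by the windows of 2 or more genes and in stretches covered by 1 window. The number of summits stands above each bar, and the bar of the shared stretches is the taller in each of the 5 distance ranges (105 against 14.5 per Mb within 100 bp).

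The share of promoter summits that were shared depended on how strong the peaks were. In the pooled list, 44.3% of the promoter summits among the 100 strongest peaks were shared (35 of 79; 33.1 to 55.9), and 44.5%, 40.4% and 35.3% in the ranks 101 to 300, 301 to 600 and 601 to 1189. Beyond the IDR set the share went on falling, to 24.1% in the ranks 1190 to 3000, 15.7% in 3001 to 10000 and 10.7% in 10001 to 30000 (9.92 to 11.6), next to the 10.3% of the window bases. Each replicate's own list showed the same course. Replicate 1 had 44.0% in its 100 strongest peaks and 10.8% in the ranks 10001 to 30000, and replicate 2 had 46.9% in its 100 strongest and 10.7% in the ranks 10001 to 22442. Among the 1189 strongest peaks of each list, 259 of 668 promoter summits were shared in replicate 1 (38.8%) and 282 of 712 in replicate 2 (39.6%). The weakest entries of the relaxed lists were therefore placed in shared and single stretches about as the bases are. These entries may be background, and the strong peaks were not placed so.

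**Figure D2:**
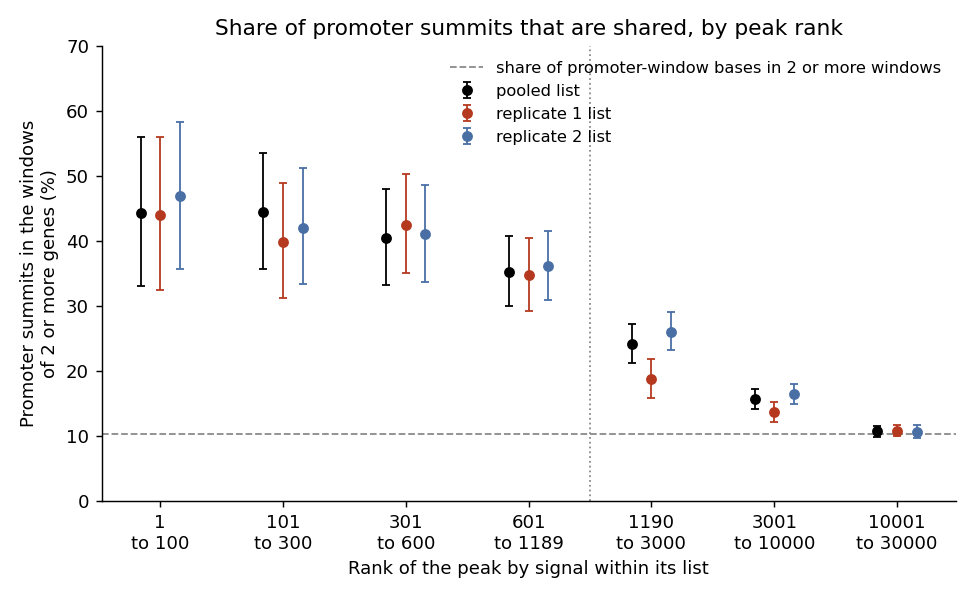
Percent of promoter summits with at least 2 genes whose windows hold them (vertical axis), by the rank of the peak in the pooled, replicate 1 and replicate 2 lists (horizontal axis), with 95% exact intervals. The dashed line is the 10.3% of window bases that lie in 2 or more windows and the dotted line the end of the IDR set (replicate 2's list ends at 22442); the points stand between 34.7% and 46.9% left of the dotted line and near the dashed line at the far right.

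Counted per pair, gene pairs on opposite strands with starts 250 to 499 bp apart held shared peaks most often. Of 3209 pairs of coding genes on opposite strands whose windows overlap, 256 (7.98%) had an IDR summit in both windows. The share was 10.5% (42 of 400; 7.67 to 13.9) where the TSSs were 0 to 249 bp apart and 16.9% (97 of 574; 13.9 to 20.2) at 250 to 499 bp. It was 9.52% (86 of 903) at 500 to 999 bp and 2.20% (28 of 1275) at 1000 to 2000 bp, where the overlap of the windows is also shorter. Starts that overlap, with a gap below 0, had 3 of 57 (5.26%). Windows overlap over fewer bases at gaps of 0 to 249 bp than at 250 to 499 bp, and over fewer still below 0. The part of this length in the order of the shares was not tested. Of 1118 pairs on the same strand, 38 had one (3.40%), and these included 11 of the 132 pairs with starts within 249 bp of each other (8.33%).

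Between divergent genes most summits lay in the space between the 2 starts, at varied places within it. The gap between the nearest opposite TSSs had a median of 476 bp (quartiles 297 and 691, range 12 to 1727; n = 247). The summit lay between the TSSs in 222 of the 247 (89.9%) and within 50 bp of the midpoint in 75 (30.4%). In 110 (44.5%) it was over 3 times nearer to the closer TSS than to the other. Both TSSs stood within 200 bp of the summit in 52 (21.1%). Across all 274 shared peaks, the nearest TSS was a median of 144 bp away and the second 354 bp, and the nearest TSS of the 423 single-promoter peaks was 277 bp away. A peak with 2 starts around it has 2 chances to lie near a start, so the first and the last of these medians are not like for like.

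The distances grew with the gap, which itself bounds them: between 2 starts the distances add up to the gap, and the windows limit each to 1000 bp. With gaps of 0 to 249 bp the nearest TSS was a median of 34 bp and the second 130 bp from the summit (n = 37). With gaps of 250 to 499 bp these were 110 and 256 bp (n = 97), with 500 to 999 bp 196 and 470 bp (n = 90), and with 1000 to 2000 bp 406 and 858 bp (n = 23). Peaks in the narrowest gaps had the highest median signal, 114, against 94.7, 81.8 and 84.5 in the wider ranges, with quartiles of 73.1 and 184 in the narrowest gaps and of 63.4 and 126 at 500 to 999 bp, which overlap. The 26 peaks on 1 strand had a median of 198 bp to the nearest TSS and 780 bp to the second.

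**Figure D3:**
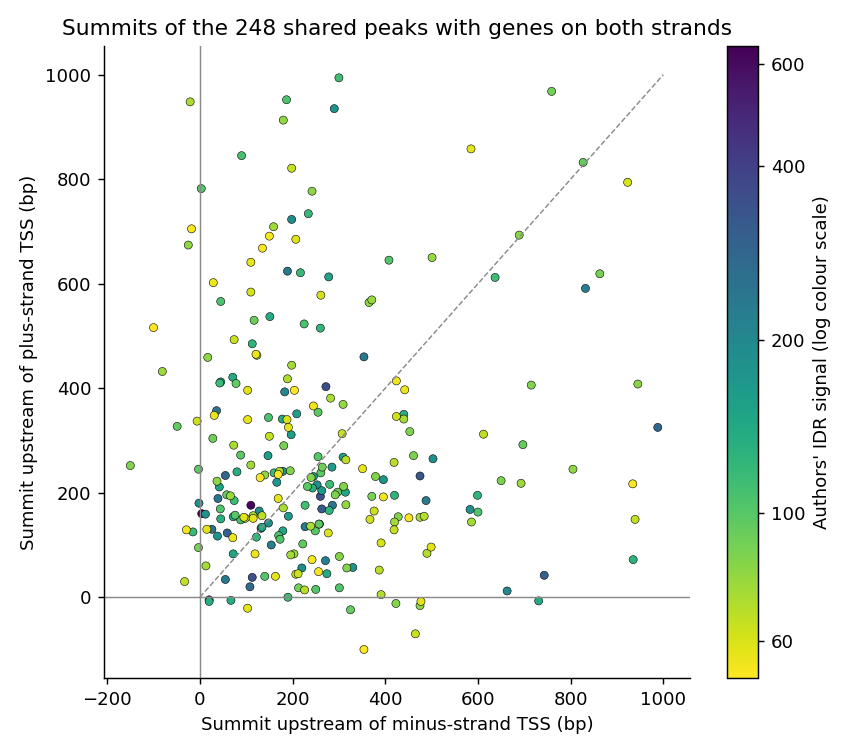
Bases by which each summit lay upstream of the nearest minus-strand TSS (horizontal axis) and of the nearest plus-strand TSS (vertical axis), both in bp, for the 248 shared peaks with genes on both strands; negative values are downstream. Colour is the authors' signal on a log scale and the dashed line marks equal distances; 222 of the 247 divergent peaks lie between the 2 starts, where both values are above 0.

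Shared peaks were slightly stronger than single-promoter peaks, by less than the spread within either group. The median IDR signal was 90.5 for shared peaks (quartiles 69.5 and 134, range 51.8 to 645), 82.8 for single-promoter peaks (62.2 and 125) and 75.0 for peaks outside promoters. In replicate 1's list the medians were 35.3 for shared and 34.9 for single-promoter peaks, and in replicate 2's list 54.7 for shared and 49.7 for single-promoter peaks. The order was the same in both replicates, but in replicate 1 the medians differed by far less than the quartiles of the shared peaks (27.4 and 53.1). The 13 peaks in the windows of 3 genes had a median of 147 (quartiles 78.2 and 244).

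The relaxed lists of both replicates held almost all shared peaks, and the 2 replicates ranked them alike only in part. Within 200 bp of the summit, replicate 1's relaxed list had a summit for 272 of 274 (99.3%) and replicate 2's for all 274. The summits matched stood as low as rank 23843 in replicate 1 and 6657 in replicate 2. The 2 without one in replicate 1 lay between rnp-2, a U1 snRNP protein gene, and K08D10.13, and between K04G7.1 and syf-2, with IDR signals of 60.2 and 56.7. Among each replicate's 1189 strongest peaks were 221 (80.7%) in replicate 1 and 247 (90.1%) in replicate 2, and 199 (72.6%) were there in both, against 263 of 423 single-promoter peaks (62.2%). The median offset of the replicate's summit from the IDR summit was 7 bp in replicate 1 and 5 bp in replicate 2. Spearman's rho of the 2 replicates' signals was 0.66 over 272 shared peaks, against 0.61 over 414 single-promoter peaks, as a description: the IDR set was made from both lists, so its peaks were chosen to be present in both. Some shared peaks rested mostly on replicate 2. The peak between the transition zone gene tmem-107 and rps-26 had a signal of 118 and rank 92 in replicate 2, and a signal of 18.0 and rank 3985 in replicate 1.

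The strongest of all FKH-4 peaks was a shared one. It lay on chromosome III with its summit at 7520849, 4 bp upstream of the TSS of cux-7, a homeobox gene, on the minus strand, 160 bp upstream of C07H6.2 and 614 bp upstream of the double-strand break repair gene lig-4, both on the plus strand. Its signal was 645 in the IDR set, 221 in replicate 1 and 423 in replicate 2, the first rank in each list. Second came the peak between F56G4.6 and wbp-4 on chromosome I (summit 11374444), 110 and 176 bp from their starts, with signals of 216 in replicate 1 and 396 in replicate 2, the second rank in each. Both replicates thus put the same 2 peaks on top. The third of the shared peaks lay at F25H9.7 and F25H9.6 (V, 13468381), whose starts are 15 bp apart, with signals of 170 and 276.

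The other shared peaks among the 15 strongest stood at genes of varied roles. The engulfment gene ced-5 and F01D4.5 had 193 and 260 bp to their starts from the summit (IV, 10483917; 156 in replicate 1 and 197 in replicate 2). The chaperone gene hsp-90 shared its peak with C47E8.4 (V, 14685757; 138 and 210), which was the nearer at 272 bp, while the hsp-90 TSS at 403 bp is an internal one. The caveolin gene cav-2 stood with C56A3.6 (V, 13556872; 137 and 196), and hpr-9, a homologue of the checkpoint clamp gene RAD9, with lron-10 (III, 10621428; 93.1 and 209). Further pairs were tasp-1, a homologue of the protease gene taspase, with K01G5.10, nasp-2, of a family of histone chaperones, with C50B6.3, and tag-124 with E02H1.1. The centriole assembly gene sas-4 lay downstream of F10E9.11 on the same strand (III, 8319319; 81.8 and 182), with its own TSS 731 bp from the summit. The mitochondrial ribosomal protein gene mrps-35 and sws-1, known for a role in homologous recombination, had 130 and 26 bp (V, 18981176; 106 and 150). The remaining 3 of the 15 involve genes with sequence names only. All 15 were among the 88 strongest peaks of replicate 1 and the 47 strongest of replicate 2, with summits at most 36 bp away in replicate 1 and 15 bp in replicate 2.

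Between them the shared peaks lay in the promoters of 548 coding genes, 2.74% of the 19973 coding genes. All IDR peaks together reached 953 genes (4.77%), so 405 genes had only single-promoter peaks. A gene can have a shared peak only if its window overlaps another gene's, and of the 7211 genes for which this holds, the 548 are 7.6%. These percentages are the background for the gene lists that follow, of which 38 were counted. Each list was made by matching gene names to a pattern, so a gene of like role under another name is not counted. The counts hold for the listed genes and not for a whole functional class. Of the 548 genes 174 were in a list, and 144 of the 274 peaks had at least 1 listed gene.

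Among the 38 lists, genes of the cytosolic ribosome had the highest share at shared peaks. Of 82 cytosolic ribosomal protein genes, 29 had a shared peak (35.4%, 25.1 to 46.7), against 2.74% of all coding genes, and 9 more had only a single-promoter peak. The windows of 61 of them overlap another gene's, and the 29 are 47.5% of these, against the background of 7.6%. The 29 genes were at 26 peaks, of which 3 lay between 2 ribosomal protein genes: rpl-24.1 with rps-10 (I, 4584884, signal 83.3), rps-14 with rpl-36 (III, 7179870, 72.0) and rpl-39 with rps-30 (V, 7776182, 58.5). In all 29 the summit lay upstream of the ribosomal protein gene's TSS, by 36 to 723 bp with a median of 285 bp. This was not particular to the list. The summit also lay upstream at all 15 gene and summit pairs of the chaperones. For RNA polymerase and general transcription it did so at 10 of 12 pairs. The ribosomal protein gene's TSS was the nearest one at 12 of the 29. Only the closest gene of a shared peak counts as nearest, and the 274 peaks have 561 gene and summit pairs. Whether this list differs from the other genes in that share was not tested.

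The strongest peaks of the ribosomal protein genes had partners outside the ribosome. The rpl-12 peak (IV, 13240687) was shared with lin-54, which encodes a DNA-binding subunit of the DREAM complex that represses cell cycle genes, 36 bp from rpl-12 and 357 bp from lin-54, with signals of 89.0 in replicate 1 and 146 in replicate 2. The rpl-20 peak (IV, 4750064), 286 bp from its TSS, was shared with Y17G9B.5 (106 and 128). The rpl-15 peak (IV, 654930), 354 bp from its TSS, was shared with K11H12.8 (74.0 and 154). The peaks at these 26 promoters were not stronger than the rest: their median IDR signal was 83.7, against 90.5 for all shared peaks.

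Translation factors and chaperones followed. Of 49 translation factor genes 11 had a shared peak (22.4%, 11.8 to 36.6) and 3 only a single-promoter peak. They were led by gfm-1, the mitochondrial elongation factor G, which shared its peak with the TORC2 subunit gene rict-1 (II, 13117298; 85.0 in replicate 1 and 133 in replicate 2). Next came ifet-1, a translational repressor, with the ribosomal protein gene rps-1 (III, 4475653; 77.7 and 104), and tufm-2, a mitochondrial elongation factor Tu, with the exocyst gene exoc-7 (I, 4247594; 42.1 and 142). Of 75 chaperone genes 14 had a shared peak (18.7%, 10.6 to 29.3) and 5 only a single-promoter peak, but the chaperone gene was the nearest at 4 of the 14. Besides hsp-90 these were hsp-60 (III, 1619118; 91.3 and 143), 624 bp from its TSS, and ahsa-1, which encodes an activator of the HSP90 ATPase (V, 15085612; 81.9 and 143). The chaperone list left out enpl-1, of the HSP90 family, and F44E5.4 and F44E5.5, of the HSP70 family, which were also at shared peaks. Of the mitochondrial ribosomal protein genes 3 of 67 had a shared peak (4.48%, 0.933 to 12.5), mrps-35, mrpl-18 and mrps-7, near the background of 2.74%, and these were 7.69% of the genes with an overlapping window, next to 7.6% over all such genes.

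Several further lists were above the background of 2.74%, with fewer genes at shared peaks in most of them. RNA polymerase and general transcription genes had 11 of 75 (14.7%), cell cycle and DNA replication genes 10 of 85 (11.8%), membrane traffic genes 16 of 137 (11.7%) and splicing factors 10 of 86 (11.6%). Mitosis and centrosome genes had 10 of 94 (10.6%), nuclear pore genes 4 of 40 (10%), mRNA export and processing genes 5 of 52 (9.62%), chromatin factors 11 of 116 (9.48%), respiratory chain genes 5 of 53 (9.43%) and proteasome genes 3 of 33 (9.09%). The lower bound of the interval was above 2.74% for each of these lists except the proteasome, where it was 1.92%. These intervals treat genes as independent, although genes share peaks, so they are no test of a list. The respiratory chain list left out ndua-2, ndua-8, ndub-8, ndab-2 and nduv-3, named as genes of NADH dehydrogenase subunits and also at shared peaks. Its shares are therefore those of the listed names only. No interval was computed for the shares among genes with overlapping windows. Measured against genes with overlapping windows, whose background is 7.6%, the shares ran from 11.1% for the proteasome to 28.9% for RNA polymerase and general transcription. Examples, with the signals in replicate 1 and replicate 2, are hcp-6, a condensin II subunit gene, at a peak 132 bp from both its own TSS and that of let-630 (I, 5165016; 93.8 and 148), and the cohesin gene smc-3, 189 bp from a summit shared with mib-1 and gly-9 (III, 11290715; 81.3 and 163). The splicing factor gene prp-19 lay 663 bp from a summit shared with K10D2.5 and emb-1 (III, 5172708; 68.2 and 140), and the histone methyltransferase gene set-16 155 bp from one shared with drr-2 (III, 13643761; 67.5 and 99.5). The retinoblastoma-binding protein gene lin-53 lay 263 bp from a summit shared with nra-2 (I, 9620023; 68.1 and 97.3), and the nucleoporin gene npp-3 88 bp from one shared with top-2 (II, 11874876; 42.7 and 52.1). The gene taf-7.2, a TFIID subunit gene, shared its peak with elpc-2 (III, 12673577; 83.6 and 139).

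The largest gene families and some smaller lists had shares below the background of 2.74%. Of 1310 chemoreceptor genes 3 had a shared peak (0.229%, 0.0473 to 0.668), although 325 have an overlapping window, and they were srh-16, srh-89 and sri-5. F-box and MATH genes had 3 of 412 (0.728%), C-type lectins 0 of 240 (interval up to 1.53%) and P450 and UGT genes 0 of 185 (up to 1.97%). Histone genes had 0 of 80 (up to 4.51%) although 69 of the 80 have a window that overlaps another gene's. Ubiquitin conjugation genes had 0 of 78 (up to 4.62%), although 42 have an overlapping window, and 7 had only a single-promoter peak. Intestinal genes (51), neuropeptide and insulin genes (141) and Hox and forkhead genes (21) had no shared peak either. For these lists the intervals reach up to 6.98%, 2.58% and 16.1%. Only 13, 25 and 2 of their genes have an overlapping window, so few could have had a shared peak. Other small lists had shares near or above the background on few genes. Body wall muscle genes had 2 of 60 (3.33%), which are 22.2% of the 9 with an overlapping window against the background of 7.6%, and 8 more had only a single-promoter peak. Wnt pathway genes had 1 of 28 (3.57%), mig-5, and 4 more had only a single-promoter peak. Cilia genes had 4 of 86 (4.65%), heterochronic genes 1 of 19 (5.26%) and germline genes 2 of 63 (3.17%).

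**Figure D4:**
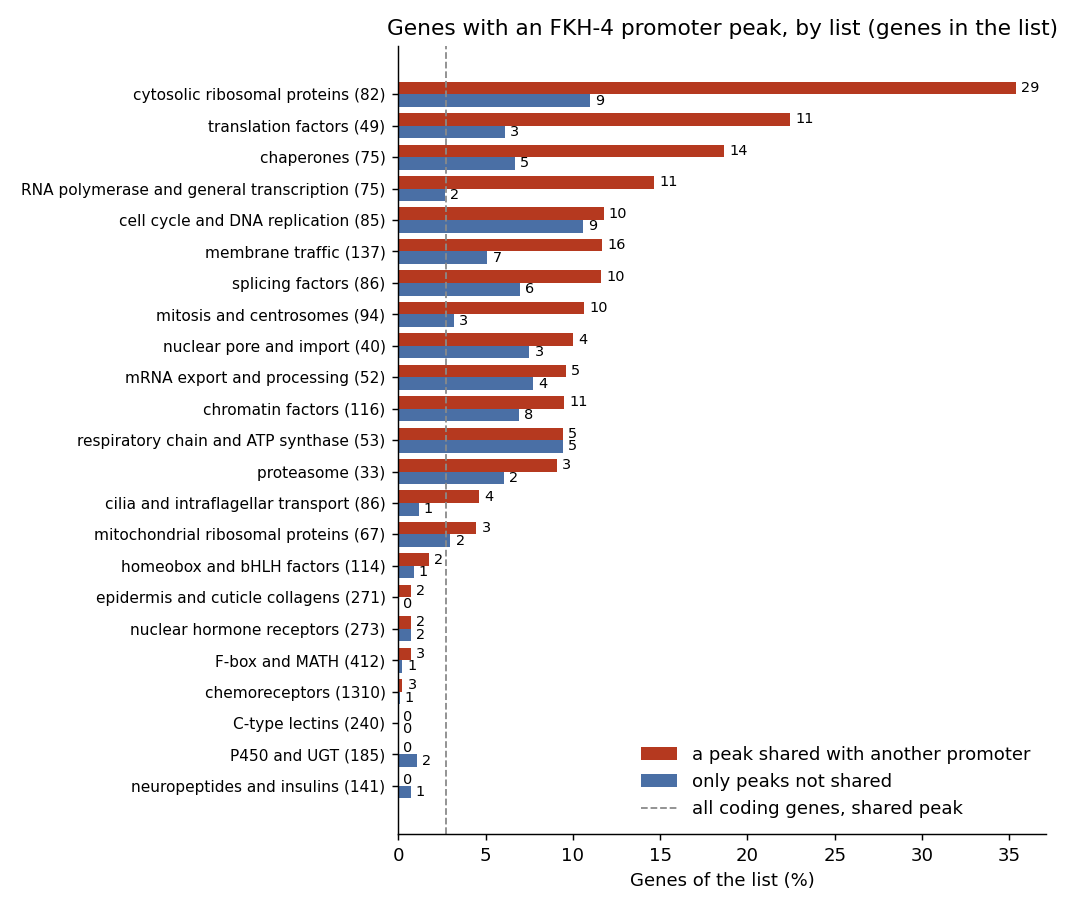
Percent of the genes of each list (horizontal axis, from 0) with a peak shared with another gene's promoter and with only peaks that are not shared; the number of genes stands at the end of each bar and the size of the list in parentheses. The plot takes in lists with at least 3 genes at shared peaks or at least 100 genes, and the dashed line is the 2.74% of all coding genes; cytosolic ribosomal proteins have the longest bar of shared peaks (29 of 82).

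At 34 shared peaks at least 2 of the genes were in a list, and mostly in different lists. Pairs of like genes outside the lists, such as far-1 with far-2 (III, 9081154, signal 79.3), are not counted here. Only at 4 were both in the same list, the 3 ribosomal pairs above and the splicing factor genes rsp-2 and rsp-1 (II, 11453153, signal 64.9). Pairs across lists included the Dishevelled gene mig-5 with the chaperonin gene cct-1 (II, 8185202, 186), the Golgi tethering gene vps-51 with the retinoblastoma homologue lin-35 (I, 5807438, 160) and the replication gene mcm-10 with teg-1 (III, 11317369, 146). Others were the E2F gene efl-1 with fbxa-90 (V, 16965862, 105), the proteasome gene rpn-3 with hsp-110 (III, 8447141, 98.8), rpl-7A with the methyltransferase family gene set-21 (IV, 4390648, 94.1), and the nuclear pore gene npp-6 with the centrosome gene spd-5 (I, 5176423, 84.5). The signals of all 34 ran from 54.7 to 645. A list that gains a gene through such a peak shares it with the partner's list, so the counts of different lists are not independent.

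Non-coding genes also started close to some shared summits. Within 200 bp lay the 5' end of at least 1 annotated non-coding gene at 30 of the 274 shared peaks (10.9%), against 64 of 423 single-promoter peaks (15.1%). At the shared peaks these were mostly unclassified ncRNA genes, at 23 peaks (8.39%, against 11.8% of the single-promoter peaks). There were piRNA genes at 4 shared peaks (0 of the single-promoter peaks) and snoRNA genes at 3 (1.09%, against 2.13%). An snRNA gene was at 1 (0.365%, against 1.42%), the trans-splicing leader RNA gene sls-2.8 (III, summit 12250444, 21 bp away, signal 113).

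Shared peaks were unevenly spread over the chromosomes, with few on the X. Chromosome III held 73 (48.3% of its promoter peaks), I 60 (47.2%), IV 48 (42.9%), II 45 (41.3%) and V 42 (33.3%). The X held 6 (8.33%), beside 66 single-promoter peaks, and its share was 16.2% with windows of 2000 bp upstream and 500 bp downstream. The X also has little shared sequence, 0.174 Mb or 4.50% of its window bases, where the autosomes have 10.6% to 12.3%. Per Mb of shared sequence the X had 34.5 shared peaks, and V, II, IV, I and III had 63.0, 92.5, 96.5, 130 and 177. The single-promoter peaks did not follow that order on the X: per Mb of stretches with 1 window the X had 17.9, and the autosomes between 14.9 (V) and 26.5 (III). The strongest of the 6 on the X stood between C27C12.4 and C27C12.1 (summit 14853984, signal 96.0), and the others included the exocyst gene sec-15 with C28G1.2 (8836040, 94.7).

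The DNA under the shared summits was rich in G and C over a narrow stretch. Within 50 bp of the summit the GC content was 45.0% ± 8.26 (SD over 274 peaks), 36.0% ± 8.01 in flanks centred 300 bp away and 45.1% ± 8.15 at single-promoter peaks. At the midpoints of 1007 divergent pairs with no peak in the pooled relaxed list it was 34.5% ± 9.02, and around all coding TSSs 36.9% ± 7.11 (n = 29304). The dinucleotide CpG made up 6.70 per 100 positions at shared summits, 3.82 in their flanks and 6.15 at single-promoter peaks. In windows of 21 bases the mean GC content of the shared peaks was 49.4% at the summit and dropped to 31.2% at 140 bp on the left and 29.8% at 120 bp on the right, below the 36.6% found 200 bp to the right. At single-promoter peaks the mean was 47.8% at the summit and 34.3% and 34.5% at those distances, so the GC content fell further beside the shared summits.

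Some 8-letter words recurred at the shared summits and were nearly absent from the flanks. The words were picked from the shared peaks themselves, as those whose share of summits most exceeded that of the flanks, so their frequency there is given as a description. CTAGGCCA, read on either strand, was within 50 bp of 39 of the 274 shared summits (14.2%, 10.3 to 18.9) and in 1 of 548 flanks (0.182%). Single-promoter peaks, which played no part in the choice, had it at 31 of 423 (7.33%, 5.03 to 10.2), peaks outside promoters at 3 of 492 (0.610%) and all coding TSSs at 0.181%. AGGAGTAC was at 29 shared summits (10.6%, 7.20 to 14.8), 0 of 548 flanks (up to 0.671%), 25 single-promoter peaks (5.91%), 4 peaks outside promoters (0.813%) and 0.259% of all coding TSSs. A further word, CTGGCGCA, was at 19 shared summits (6.93%), 16 single-promoter peaks (3.78%) and 0.106% of all coding TSSs. A match of letters describes the sequence and does not show a binding site.

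Peaks with the first or the second word were stronger than those without, in both replicates and in both kinds of promoter peak. Shared peaks with CTAGGCCA had a median IDR signal of 161, against 84.6 without it, and 54.4 against 34.0 in replicate 1 and 90.7 against 51.1 in replicate 2. Among single-promoter peaks the IDR medians were 136 with it and 80.5 without it. With AGGAGTAC the shared peaks had 158, against 85.1 without it, and the single-promoter peaks 173 against 80.8. With CTGGCGCA the shared peaks had 80.8, against 92.2 without it. The words lay near the summit, CTAGGCCA at a median of 16 bp and AGGAGTAC at 23 bp from it in shared peaks.

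The 2 words occurred together at 8 shared peaks and 6 single-promoter peaks, with spacings from 8 to 37 bases. At 3 of the 8 shared peaks, those of mrps-35 with sws-1, gfm-1 with rict-1 and tufm-2 with exoc-7, AGGAGTAC followed CTAGGCCA on the other strand after 8 or 9 bases. The same arrangement was at 3 of the 6 single-promoter peaks, those of the beta-catenin gene wrm-1 and 2 neighbouring peaks of Y65A5A.2. The other 3 single-promoter peaks, at Y73B6BL.29, cnk-1 and sahd-1, had spacings of 18, 13 and 15 bases, the last 2 with both words on the same strand. At 2 further shared peaks, at cee-1 and gna-1, the words had this order and these strands with 22 and 23 bases between them. At the last 3, at ska-1, mrpl-18 and mre-11, AGGAGTAC came before CTAGGCCA on the same strand with 34 to 37 bases between them. By gene list the counts were small. At cytosolic ribosomal protein genes 2 of 26 shared peaks had CTAGGCCA and none had AGGAGTAC or CTGGCGCA, beside 14.2%, 10.6% and 6.93% of all shared peaks. Chaperone genes had the first word at 2 of 15 peaks and neither of the others, cell cycle genes the first at 1 of 10, and splicing factor genes none at 10. At translation factor genes 3 of 11 peaks had the first word and 2 the second, and at mitochondrial ribosomal protein genes 2 of 3 had each.

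**Figure D5:**
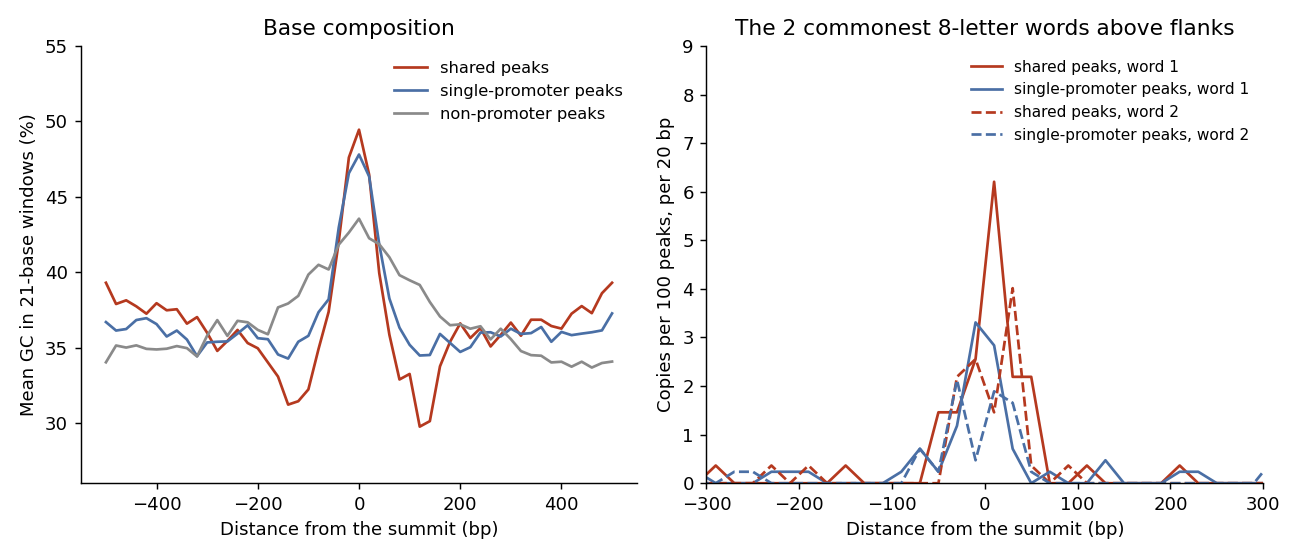
Left, mean GC content in windows of 21 bases (vertical axis, percent; the axis does not start at 0) by distance from the summit (horizontal axis, bp) for shared, single-promoter and other peaks. Right, copies of the first (solid) and second word (dashed) per 100 peaks in steps of 20 bp, for shared and single-promoter peaks; GC content peaks at 49.4% at the shared summits and copies of both words gather close to the summit.

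Of 26 motifs searched on both strands, the forkhead core was not among those found at shared summits more than around other starts. TGTTTAC was within 50 bp of 2 shared summits (0.730%), 4 single-promoter summits (0.946%), 0.912% of the shared peaks' flanks, 2.28% of the midpoints of divergent pairs without a peak and 0.969% of all coding TSSs. GACGC, a different site reported for some forkhead proteins of yeast and human, was at 28.8% of the shared summits, 22.2% of the single-promoter summits, 16.5% of the peaks outside promoters, 7.12% of the flanks and 7.40% of all coding TSSs. GACGC lies within the reverse complement of CTGCGTCTC, which was at 5.84% of the shared summits, 6.38% of the single-promoter summits and 0.508% of all coding TSSs. GCCATNTT, a core of the YY1 motif, was at 16 shared summits (5.84%), 5 single-promoter summits (1.18%) and 2.78% of all coding TSSs. CANNTG, the E-box, went the other way with 38.0% of the shared, 45.4% of the single-promoter and 59.3% of the other summits, against 35.6% of all coding TSSs. TTTCAG, the letters of a splice acceptor, was at 11.3% of the shared summits, 27.7% of their flanks and 33.9% of all coding TSSs. Motifs rich in G and C, or in A and T, move with the GC content given above, and its part in these shares was not tested.

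The line between shared and single-promoter peaks is set by the window, and some peaks lie close to it. Just inside were the peak of the acetyltransferase gene mys-1, 6 bp within the window of VC5.2 (signal 113), and that of C50B6.3, 12 bp within that of nasp-2 (285). The next were that of pfd-5, 19 bp within the window of the exosome gene exos-9 (119), that of C33A12.3, 20 bp within that of C33A12.4 (56.1), and that of F44E2.9, 21 bp within that of F44E2.8 (106). Just outside were the peaks of pfd-6, 5 bp short of the window of rde-2 (79.8), of pdtf-1, 5 bp short of that of T26A8.4 (61.0), and of K12H4.5, 9 bp short of that of spcs-3 (129). The peak of elo-1 was 17 bp short of the window of ndua-5 (170) and that of ints-4 was 21 bp short of that of W09C5.12 (198).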

How the data were processed

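FKH-4 was profiled by ChIP-seq in 2 biological replicates of 1 group, so named in the labels, and no p-value was computed. Per the sample listings, the authors called peaks on ce11 in each replicate and in both pooled, derived the IDR set from these lists, and gave each peak a signal value as deposited, whose scale no source here states. The lists also hold a −log10 q-value that the authors deposited, which served only to describe them. Calling used a control of another experiment, not analysed here. Read depth, the peak caller and the threshold of the IDR step are not stated in the labels.

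Promoter windows came from coding transcripts in Ensembl release 115 (WBcel235, the same build as ce11) on 6 nuclear chromosomes. Replicate summits were matched within 200 bp of an IDR summit. GC content, motifs and words were read within 50 bp of each summit, on both strands. Intervals are 95% exact Clopper-Pearson and cover counting error only. Python 3.11.15 with numpy 2.4.6, pandas 2.3.3 and scipy 1.17.1 was used, and the counting was tested on simulated data.

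Genes were named by a rule: those of the 15 strongest shared peaks, those of peaks where 2 listed genes share a summit, up to 3 with the strongest peaks from each list with at least 3 genes at shared peaks, and the 5 peaks on either side of the window's edge. Genes outside it (on the X, beside non-coding genes, at peaks that replicate 1 lacks, with overlapping starts, at both words together, and in lists with fewer genes) were chosen for naming only after their values had been seen. The same holds for genes named because the lists left them out. The regions, the gene lists and the motifs were chosen with earlier results of these data known. The alternatives tried were a narrower and a wider promoter window, 1 TSS per gene, the stronger IDR peaks alone, each replicate's own list, other sequence windows and other matching distances.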

Additional observations from a re-analysis of the deposited data

How the results depend on the processing

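A change of direction was defined only for the ratio of the median signals of shared to single-promoter peaks, and it did not occur there. The 13 results had 87 alternative values. Of these values 53 were within the limit set for a move (1.5 times for counts, 1 SD between the 2 replicates for other values) and 34 were beyond it. With a promoter window of 500 bp upstream and 100 bp downstream, there were 192 shared peaks at 383 coding genes, 23 of them ribosomal protein genes, and shared peaks were 33.6% of the promoter peaks, 97.4% had genes on both strands, the median distance to the nearest TSS was 116.5 bp and AGGAGTAC was at 13.0%. With 2000 bp upstream and 500 bp downstream there were 384 shared peaks, those shares were 45.7%, 86.7% and 8.85%, the distance was 167.5 bp, the ratio of the median signals of shared to single-promoter peaks was 1.06 (1.09 in the report), 839 coding genes were reached, the X had 16.2% and CTAGGCCA was at 12.0%. With 1 TSS per gene the median distance was 140 bp. The 594 strongest IDR peaks gave 162 shared peaks (42.4%), 150.5 bp, a signal ratio of 1.04, 328 genes, 16 ribosomal protein genes, a GC content of 45.8%, CTAGGCCA at 19.8% and AGGAGTAC at 15.4%, with fewer peaks by construction. Reading 100 bp on either side of the summit gave a GC content of 39.9%, and 25 bp gave 48.4%, CTAGGCCA at 9.49% and AGGAGTAC at 4.38%. Counting TSSs of non-coding transcripts of coding genes, an alternative chosen after seeing the data, gave 275 shared peaks.

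From 1 replicate's 1189 strongest peaks at a time, the shared peaks numbered 259 to 282 (38.8% to 39.6%), with 90.3% to 91.8% on both strands. The median distance was 140 to 141.5 bp, the signal ratio 1.03 to 1.08, the coding genes 516 to 559 and the ribosomal protein genes 27 to 29. GC content was 43.5% to 44.5%, the share on the X 6.85% to 11.0%, CTAGGCCA 10.4% to 12.1% and AGGAGTAC 8.11% to 9.57%. The cause of these shifts was not tested. Matching within 100 bp and 50 bp found 261 and 239 shared peaks in replicate 1 and 270 and 255 in replicate 2. No paired analysis was possible because the 2 samples form 1 group. With no read counts in the lists, depth sets no stated limit on any single peak.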
